A study of Homo sapiens with 8 samples.

Results

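A set of 10 genes at the core of beta-catenin signalling was followed through both occupancy tables of NCI-H69, an established cell line of human small cell lung cancer. They were CTNNB1, TCF7, TCF7L1, TCF7L2, LEF1, AXIN1, AXIN2, APC, DVL1 and GSK3B. A region was counted for a gene when it overlapped the RefSeq GRCh38 span of that gene extended by 3000 bp on both sides, a rule of position that used no measured value. By it, 25 of 55650 listed regions belonged to the 10 genes. They comprised 20 of 35154 RBBP4 regions and 5 of 20496 P300 regions.

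The cells had been transfected with non-targeting siRNA or with siRNA against CSNK2B, the gene of the regulatory subunit of casein kinase 2, and were taken 48 h later. The knockdown and control arms therefore shared the line, the transfection and the time, and differed by the siRNA alone as labelled. Of the 8 libraries, the 4 immunoprecipitated ones were used, with 1 per antibody (RBBP4 or P300) and arm, so differences lack any replicate and the conditions could not be tested against each other. The batch entry of the labels only repeats the name of the antibody or its input, so a batch and the antibody cannot be told apart, and every fold compares arms within 1 antibody.

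Wnt signalling works by keeping or destroying beta-catenin. In the absence of a Wnt ligand, a destruction complex built on AXIN1 or AXIN2, with APC and the kinases GSK3B and casein kinase 1, marks beta-catenin (the product of CTNNB1) for degradation. Ligand binding to frizzled and LRP receptors recruits DVL1, the complex is inhibited, and beta-catenin enters the nucleus, where it joins the DNA-binding factors TCF7, TCF7L1, TCF7L2 and LEF1 at target genes. AXIN2 is itself a textbook target of the pathway. Casein kinase 2 is known to phosphorylate several of these proteins, including beta-catenin and dishevelled. RBBP4 is a histone-binding subunit of deacetylase and Polycomb complexes, and P300 is an acetyltransferase that beta-catenin is known to bind.

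At CTNNB1, TCF7L2 and APC, a listed region covered bases directly upstream of an annotated start site. The 250 bases before those starts are shown because they are the promoter sequences that the RBBP4 and P300 values below refer to. They come from RefSeq on GRCh38.p14, all on the plus strand and written 5′ to 3′, with matches to the GC box (GGGCGG, or its reverse complement) in capitals.
CTNNB1, chr3:41199255-41199504: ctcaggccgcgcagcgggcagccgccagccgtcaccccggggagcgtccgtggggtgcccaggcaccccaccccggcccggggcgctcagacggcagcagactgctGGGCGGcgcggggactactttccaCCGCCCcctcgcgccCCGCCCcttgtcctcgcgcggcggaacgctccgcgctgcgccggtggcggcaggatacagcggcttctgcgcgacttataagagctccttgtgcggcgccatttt
TCF7L2, chr10:112949997-112950246: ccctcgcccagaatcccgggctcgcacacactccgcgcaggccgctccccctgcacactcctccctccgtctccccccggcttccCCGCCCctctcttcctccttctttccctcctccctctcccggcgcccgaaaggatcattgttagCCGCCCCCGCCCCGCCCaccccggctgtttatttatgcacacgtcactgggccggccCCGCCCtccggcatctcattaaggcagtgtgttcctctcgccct
APC, upstream start, chr5:112707248-112707497: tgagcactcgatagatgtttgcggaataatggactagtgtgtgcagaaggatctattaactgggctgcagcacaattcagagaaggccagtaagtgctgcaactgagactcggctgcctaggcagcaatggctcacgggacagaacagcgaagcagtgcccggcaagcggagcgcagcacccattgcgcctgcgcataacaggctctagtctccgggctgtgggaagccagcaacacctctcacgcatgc
APC, downstream start, chr5:112737635-112737884: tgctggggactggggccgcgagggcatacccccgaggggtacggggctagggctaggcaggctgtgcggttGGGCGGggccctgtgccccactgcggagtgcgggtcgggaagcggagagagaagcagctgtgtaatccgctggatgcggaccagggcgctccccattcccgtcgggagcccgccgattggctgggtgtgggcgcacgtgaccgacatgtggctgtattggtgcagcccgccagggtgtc

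RBBP4 regions covered all 250 of these bases at CTNNB1, 210 of them at TCF7L2 and all 250 at the upstream APC start. The downstream APC start, in contrast, had 55 of its 250 bases inside a P300 region and none inside an RBBP4 region. These promoters differed in composition: CTNNB1 had 34 CpG dinucleotides and 74.4% G and C, against 12 and 56.4% at the upstream APC start. The TCF7L2 sequence held 5 GC boxes, of which 2 share a base, CTNNB1 held 3, the downstream APC start 1 and the upstream APC start 0. Start sites were in the table for 9 of the 10 genes, 13 sites in all. A GC box lay upstream of 9 of the 13, where 42.6% of 35116 annotated start sites had one. The core TCF/LEF letters CTTTGA, read on both strands, were in 0 of the 13 windows and in 11.2% of all windows of that length. CCAAT, on both strands, was in 3 of 13 and 32.0% of all, and the E-box CACGTG, which reads alike on both strands, in 1 of 13 and 6.34% of all. The 35116 sites belong to 27305 genes, more than the 20037 protein-coding ones, so that background is not limited to protein-coding genes. Some of the 13 sites share a gene, and the shares were not tested against each other. A match of letters describes a sequence and does not show that a factor is bound.

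No p-value of 0.05 or more occurs in the authors' deposited table of either antibody, so only regions with a difference by that measure are listed, and the name of each region gave the arm in which its peak was called. At all 25 regions that arm was also the one with more reads. Direction thus nearly repeats the peak call, and folds at regions picked in this way favour the arm that picked them. The absence of a region from a table does not show equal occupancy. Reads were recovered from the deposited density values, and folds are ratios of reads scaled to the reads in all tested regions. Those totals, inferred and not counted, were 1207945 and 833181 reads for RBBP4 knockdown and control and 946392 and 1092789 for P300. The 95% exact intervals after each fold cover counting error only. The arms were read from column names, where Sample was taken as knockdown and Control as non-targeting, with only the initials S and C for RBBP4; a swap would turn every direction. The log2 fold change in the authors' deposited table lay 0.57 above the log2 ratio of RPKM for RBBP4 and differed from it by -0.44 for P300. Both are medians over deep regions only, 1061 for RBBP4 and just 8 for P300, so the P300 value is loosely set. The scaling of the authors' log2 fold change is taken here to be to whole libraries, an inference, since no library totals were used. Directions were set by the sign of that log2 fold change, so none of the 25 could turn under it. Neither table listed a region at CSNK2B. The libraries hold no measure of RNA or protein, so the knockdown itself was not measured. Of 8 neuroendocrine marker genes only NCAM1 had a listed region in either table. RBBP4 regions were listed at all 4 non-neuroendocrine, 3 of 4 fibroblast and 0 of 4 T cell marker genes, and P300 regions at 1, 2 and 1 of them (PTPRC for T cells). Over all protein-coding genes 51.6% had a listed RBBP4 region and 23.6% a listed P300 region. These short lists were not tested against those shares, and the spans of their genes were not considered. Occupancy is not expression.

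RBBP4 read density was higher after CSNK2B knockdown in 18 of the 20 listed regions, at 8 of the 10 genes. The 8 were CTNNB1, TCF7, TCF7L2, LEF1, AXIN2, APC, DVL1 and GSK3B. The other 2 regions, inside TCF7L2 and GSK3B, were lower, and TCF7L1 and AXIN1 had no listed RBBP4 region. All 18 were higher by 2-fold or more and both others lower by 2-fold or more, taking the log2 ratio of RPKM (reads scaled to the length of the region and to the total) with a pseudocount of 1. Of all listed RBBP4 regions 64.9% passed that mark upward and 31.2% downward. The median log2 ratio over the 20 regions was 2.17, against 1.49 over all 35154. Both medians pool higher and lower regions, whose mix differed. Among higher regions alone the medians were 2.23 and 1.86, and among lower ones -2.80 and -2.76. With 20 regions from 8 genes, several of them close neighbours, these shares describe the 10 genes and do not set them apart from the rest.

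An adjusted p-value under 0.05 in the authors' deposited table belonged to 14 of the 20 regions, all higher, at 6 genes: TCF7, TCF7L2, LEF1, AXIN2, APC and GSK3B. Among all listed RBBP4 regions 48.3% were higher with such a p and 8.94% were lower. By gene, 38.3% of 20037 protein-coding genes had such a higher region in the same window and 5.6% such a lower one, while 51.6% had any listed RBBP4 region. The 10 genes are long, with a median span of 93.3 kb against 24.1 kb for all protein-coding genes. Among the 11853 genes whose span fell between the shortest and the longest of the 10 (14.1 to 273 kb), 43.3% had a higher region of that kind. The 10 genes carried 1.69 listed RBBP4 regions per 100 kb of window, and all protein-coding genes 1.61. These p-values compare 2 libraries, not the conditions. They were returned by a fixed dispersion of 0.01 in 98.2% of RBBP4 regions, and recomputed with a dispersion of 0.04 they passed 0.05 after adjustment at 5 of the 10 genes. With a dispersion of 0.16 none of the 10 genes did, the lowest recomputed value being 0.203 at AXIN2.

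**Figure D1:**
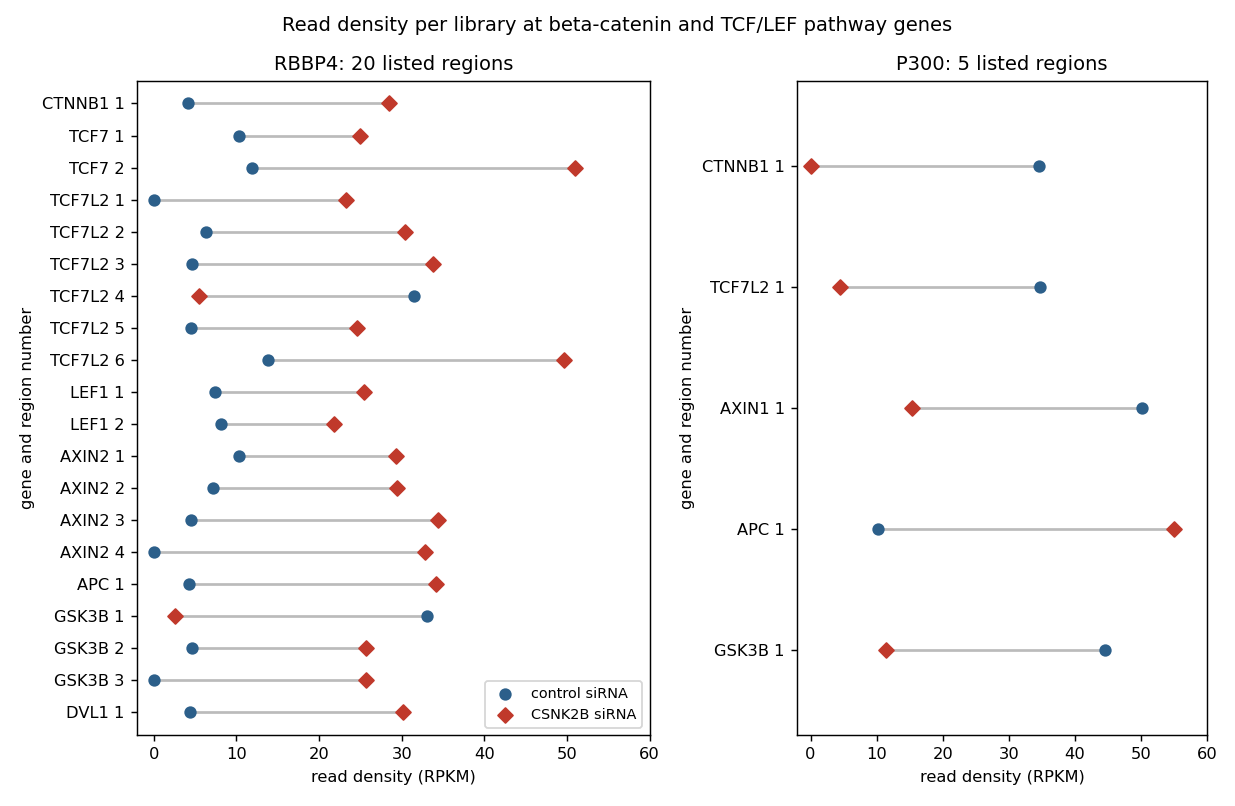
Read density in RPKM (horizontal axes) in the control library (blue circles) and the CSNK2B knockdown library (red diamonds) for the 20 RBBP4 regions (left) and 5 P300 regions (right), numbered along each gene by coordinate, with 1 library per point. For RBBP4 the knockdown point lies to the right in 18 regions, with TCF7L2 region 4 and GSK3B region 1 the other way; for P300 it lies to the left in 4 of 5, with APC the other way.

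CTNNB1 encodes beta-catenin, the coactivator that the pathway controls. Its RBBP4 region, chr3:41199226-41199516, lay across the start site and had 10 reads in the knockdown library and 1 in the control library. In density that was 28.4 against 4.12 RPKM. The reads were 6.90-fold higher, with an interval (0.981 to 299) that includes 1 and an adjusted p-value of 0.0620 in the authors' deposited table. The single P300 region of CTNNB1 lay at the far end of the gene, 35.9 kb past the start site at chr3:41235453-41235637, and had 0 reads in the knockdown library against 7 in the control library. Against a floor of 3 reads in the empty library it was 2.02-fold lower, and the nearest bound of its exact interval was 1.25-fold. Each antibody thus had 1 region at CTNNB1, at opposite ends of the gene and in opposite directions.

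TCF7, also called TCF-1, is one of the DNA-binding partners of beta-catenin. It held the deepest region of the 20, at chr5:134124543-134125858, a 1316 bp stretch that begins 925 bp after the downstream of its 2 annotated starts. In density it went from 11.9 RPKM in the control to 51.0 RPKM after knockdown. This region had 81 reads in the knockdown library and 13 in the control library, 4.30-fold higher (2.38 to 8.42), and its adjusted p-value of 5.43e-08 in the authors' deposited table was the lowest among the 10 genes. A neighbouring region began 19 bp after the same start, at chr5:134123637-134124100, and had 14 reads against 4. Its density was 2.41-fold higher (0.758 to 10.1), an interval that includes 1, and it had an adjusted p-value of 0.121 in the authors' deposited table. The 442 bp between the regions were not listed. No P300 region was listed at TCF7.

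TCF7L2, also called TCF4 in the Wnt literature, carried the most listed RBBP4 regions of the 10 genes, 6 over its 217 kb span. The first, chr10:112950037-112950392, lay across the upstream start site and had 10 reads in the knockdown library and 0 in the control library. It was 2.30-fold higher against the floor of 3 reads, with an exact lower limit of 1.55. A pair 261 bp apart followed within the first 10 kb of the gene (chr10:112958297-112959250 and chr10:112959512-112960026). They had 35 reads against 5, 4.83-fold higher (1.88 to 15.8), and 21 against 2, 7.24-fold higher (1.77 to 63.7). All 3 had adjusted p-values below 0.05 in the authors' deposited table, at 0.0180, 1.86e-04 and 0.00188.

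Further inside TCF7L2 the regions changed direction and back. At 70.0 kb from the start, chr10:113020285-113020742 had 3 reads in the knockdown library and 12 in the control library, 5.80-fold lower (1.57 to 32.0), with an adjusted p-value of 0.121 in the authors' deposited table. Another 27.1 kb along, chr10:113047888-113048425 had 16 reads against 2, 5.52-fold higher (1.30 to 49.5). The last, chr10:113056424-113056857, had 26 against 5, 3.59-fold higher (1.36 to 11.96). The adjusted p-values of these 2 higher regions in the authors' deposited table were 0.0156 and 0.00511. The single P300 region of TCF7L2, chr10:113152644-113152880, lay 14798 bp from the end of the span, well away from every RBBP4 region, and had 1 read in the knockdown library against 9 in the control library, 7.79-fold lower (1.08 to 342).

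LEF1 is the lymphoid enhancer factor of the same family. It is on the minus strand, so the upper end of its span is its 5′ end. The 1 start site available for it lies inside the span, and both of its RBBP4 regions lay upstream of that start. The nearer, chr4:108168381-108169193, lay across the upper end of the LEF1 span, 2.08 kb upstream of that start, and had 25 reads in the knockdown library and 5 in the control library, 3.45-fold higher (1.30 to 11.5). It also overlaps LEF1-AS1, an antisense transcript, and LOC124900752, so its reads cannot be assigned to 1 of them. The farther, chr4:108171499-108173636, overlaps LEF1-AS1 as well and was the widest of the 20 at 2138 bp. Its deposited densities did not give whole reads at that width. Among widths that did, 1630 bp was taken by its match to the authors' p. At 1630 bp the region had 43 reads in the knockdown library and 11 in the control library, 2.70-fold higher (1.37 to 5.80). The authors' p was 2 times the value recomputed for those reads, a factor that the choice allowed. Both had an adjusted p-value under 0.05 in the authors' deposited table, 0.00734 and 0.00190. TCF7L1, the family member best known as a repressor, had no region in either table across its 177 kb span.

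**Figure D2:**
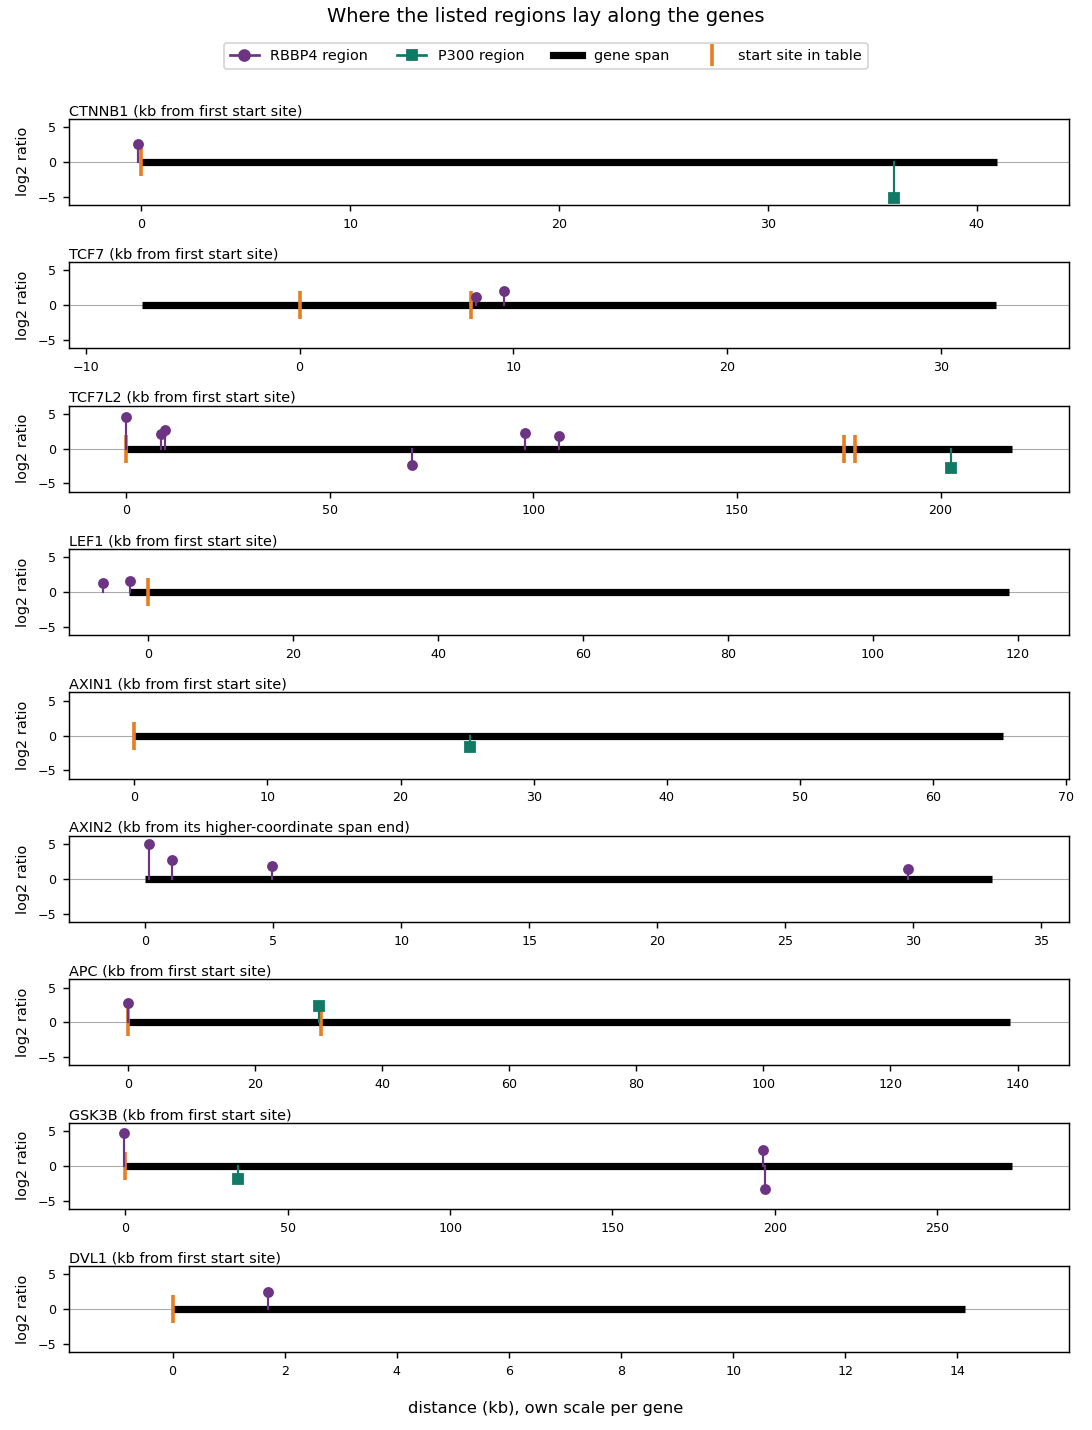
Position of each listed region along 9 of the 10 genes (TCF7L1 had none), as distance in kb from the first annotated start site (orange ticks mark starts; AXIN2, without a start in the table, is drawn from its higher-coordinate end), each on its own scale, against the log2 ratio of RPKM, knockdown over control, with a pseudocount of 1. RBBP4 regions (purple circles) above 0 lie at or near a start at CTNNB1, TCF7, APC and DVL1. At LEF1 they lie upstream of the start drawn, 1 across the 5′ end of the span and 1 beyond it. TCF7L2 has 1 across its first start, a pair 8.05 and 9.265 kb past it and others far inside. GSK3B has 1 beside its start and others far inside. The P300 regions (green squares) do not coincide with RBBP4 regions.

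Of the scaffold genes of the destruction complex, AXIN2 carried 4 RBBP4 regions and AXIN1 none. At AXIN2, all 4 regions were higher after knockdown, and all 4 had an adjusted p-value under 0.05 in the authors' deposited table. One lay across the upper end of the span, chr17:65561328-65561655, with 13 reads in the knockdown library and 0 in the control library. That region was 2.99-fold higher against the floor of 3 reads, with an exact lower limit of 2.10. Its neighbour 573 bp inside, chr17:65560490-65560754, had 11 against 1, 7.59-fold higher (1.10 to 327). Then came chr17:65556271-65557114 with 30 against 5, 4.14-fold higher (1.59 to 13.7). The remaining one lay near the other end of the gene, chr17:65531319-65532362, with 37 against 9, 2.84-fold higher (1.34 to 6.68).

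The peak numbers in the region names ran upward along each chromosome in both tables, so skipped numbers count peaks that were called and not listed. Between AXIN2 regions 2 and 3, 3375 bp apart, 2 numbers of knockdown peaks were skipped, and GSK3B likewise had 2 skipped between its 2 listed knockdown peaks. At TCF7L2 the 5 knockdown peaks were numbered without a break, so 0 called knockdown peaks lay unlisted between them. The 3 AXIN2 regions at its upper end, with the 2 unlisted peaks, fell within 5.39 kb. AXIN1 had 1 P300 region, chr16:327408-327681, 25.0 kb into the gene, with 4 reads in the knockdown library and 15 in the control library. This was 3.25-fold lower (1.03 to 13.4).

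APC, the tumour suppressor that helps AXIN hold beta-catenin, was the only one of the 10 with a higher region in both tables. The RBBP4 region, chr5:112707239-112707795, lay across the upstream start site and covered the promoter sequence shown above, with 4.31 RPKM in the control and 34.2 RPKM after knockdown. It had 23 reads in the knockdown library and 2 in the control library, 7.93-fold higher (1.96 to 69.4), with an adjusted p-value of 7.92e-04 in the authors' deposited table. The P300 region, chr5:112737421-112737689, ended 196 bp before the downstream start and had 14 reads in the knockdown library and 3 in the control library, 5.39-fold higher (1.504 to 29.2). The regions were 29.6 kb apart, each at a different APC start.

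GSK3B, the kinase that marks beta-catenin, had 3 RBBP4 regions and 1 P300 region. Beside its start, chr3:120094828-120095085 lay 381 bp upstream and 19 bp from the divergent transcript GSK3B-DT. It had 8 reads in the knockdown library and 0 in the control library. Against the floor of 3 reads it was 1.84-fold higher, with an exact lower limit of 1.18. Its adjusted p-value in the authors' deposited table was 0.0463. Deep inside the gene, 197 and 196 kb from that start, a pair of regions 384 bp apart went opposite ways. The one at chr3:119897312-119897638 had 1 read in the knockdown library and 9 in the control library, 13.0-fold lower (1.81 to 572). Its neighbour at chr3:119898023-119898280 had 8 and 1, 5.52-fold higher (0.740 to 245), an interval that includes 1. Neither of this pair passed an adjusted p-value of 0.05 in the authors' deposited table, with 0.0890 and 0.121. The P300 region, chr3:120059682-120059866, had 2 reads against 9, 3.90-fold lower (0.807 to 37.1), and its interval includes 1.

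DVL1, which relays the signal from the receptor, is the shortest of the genes at 14.1 kb. Its RBBP4 region, chr1:1347575-1347849, began 1.57 kb after the start and had 10 reads in the knockdown library and 1 in the control library, the same counts as at CTNNB1 (6.90-fold higher, 0.981 to 299). Its adjusted p in the authors' deposited table was also 0.0620.

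**Figure D3:**
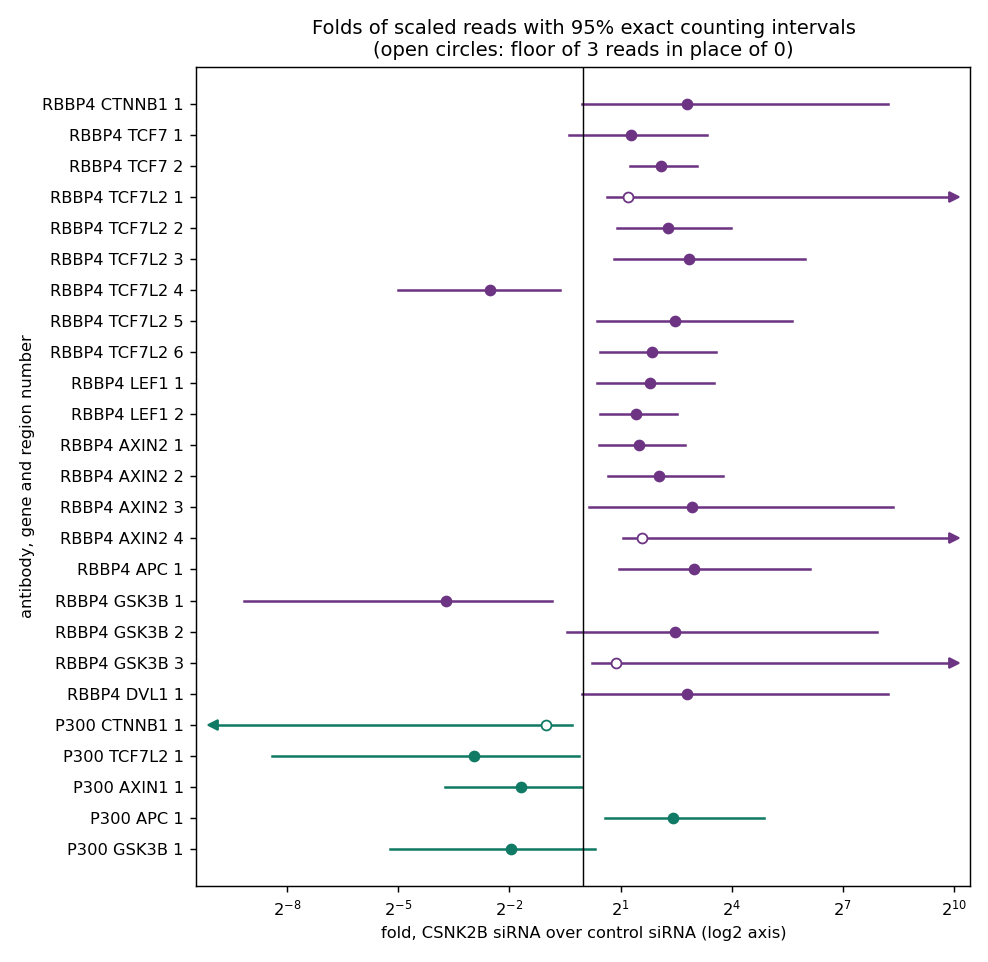
Fold of scaled reads, knockdown over control, on a log2 axis for the 20 RBBP4 regions (purple) and 5 P300 regions (green), with 95% exact counting intervals; open circles use a floor of 3 reads in place of 0 and arrows mark intervals without a bound. The intervals of RBBP4 CTNNB1 1, TCF7 1, GSK3B 2 and DVL1 1 and of P300 GSK3B 1 cross the line at 1, which marks equal scaled density.

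Over the 20 RBBP4 regions, density after knockdown lay between 21.8 and 51.0 RPKM in the 18 higher regions and between 2.53 and 5.42 RPKM in the 2 lower ones. In the control the 18 lay between 0 and 13.8 RPKM and the 2 lower ones at 31.4 and 33.0 RPKM, so at each of the 20 regions the library with the called peak had at least 21.8 RPKM. Counting error was large, since the reads of both libraries together had a median of 18 in the 20 regions, against 19 in all listed RBBP4 regions. With reads scaled to all tested regions the intervals of 16 of 20 folds left out 1. With reads shifted to the scaling of the authors' log2 fold change those of all 20 did. Regions are listed only with a p below 0.05 in the authors' deposited table. The 20 of 20 thus largely repeats the rule of listing and adds no support. By the medians of 18 and 19 reads, the regions of the 10 genes were about as deep as the rest.

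Of the 18 higher RBBP4 regions, 10 lay within 3000 bp of an end of the gene they belong to, at CTNNB1, TCF7L2, LEF1, AXIN2, APC, DVL1 and GSK3B. The 2 lower regions did not, and neither did any of the 5 P300 regions. Among all higher RBBP4 regions in the windows of protein-coding genes 47.0% lay that close to a gene end, and among the lower ones 11.5%. The 47.0% and 11.5% count an end of any protein-coding gene, and the 10 of 18 only an end of the gene itself. These shares are not the same measure, though higher regions near gene ends were common at other genes too. Among P300 regions in such windows 13.2% of higher and 11.4% of lower ones lay near an end of any protein-coding gene.

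P300 density was lower after knockdown in 4 of the 5 listed regions, at CTNNB1, TCF7L2, AXIN1 and GSK3B, and higher in 1, at APC. By the log2 ratio all 4 were lower by 2-fold or more and APC higher by 2-fold or more. Of all listed P300 regions 64.3% passed that mark downward and 34.7% upward. None of the 5 passed an adjusted p-value of 0.05 in the authors' deposited table (0.260, and 0.293 at GSK3B), where the called share of all listed P300 regions was 0%. Each had an unadjusted p below 0.05 there, as every listed region does. By gene, 5 of 10 had a listed P300 region, against 23.6% of protein-coding genes, with 1 gene higher (11.5% of protein-coding genes) and 4 lower (17.7%). Per length the order was the other way, with 0.423 listed P300 regions per 100 kb of window at the 10 genes and 0.674 at all protein-coding genes. The 5 regions held 7 to 19 reads over both libraries. None of the 20 RBBP4 regions overlapped any P300 region and none of the 5 P300 regions overlapped an RBBP4 region, while 0.902% of all RBBP4 and 1.55% of all P300 regions did so.

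The rest of the Wnt pathway was followed in a list of 114 other genes, from ligands to targets. A higher RBBP4 region with an adjusted p-value under 0.05 in the authors' deposited table lay at 66 of the 114 (57.9%), and a lower one at 7 (6.14%), against 38.3% and 5.6% of all protein-coding genes. The 7 with a lower region were RSPO2, RSPO3, ROR2, DKK2, TLE4, CDC73 and TBL1XR1, named here after their values were seen. All but RSPO3 are in the higher count too. ROR2 had 9 such higher regions and 1 lower, TLE4 had 5 and 2, RSPO2 and DKK2 each had 2 and 1, CDC73 had 1 and 1, and TBL1XR1 had 1 and 2. Classes differed in their counts. Ligands had a higher region in 6 of 24, receptors and co-receptors in 8 of 18, and secreted and membrane inhibitors in 11 of 17. Relay and destruction complex genes had one in 17 of 24, a class in which the list also holds CTBP1 and CTBP2, known as nuclear corepressors and both among the 17. Other nuclear cofactors had one in 15 of 19 and textbook target genes in 8 of 10. Of the ligand secretion genes PORCN and WLS, 1 of 2 had one. Median spans were 29.7 kb for ligands, 39.8 kb for relay genes, 70.9 kb for nuclear cofactors and 8.45 kb for targets, and the part of span in these counts was not tested.

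**Figure D4:**
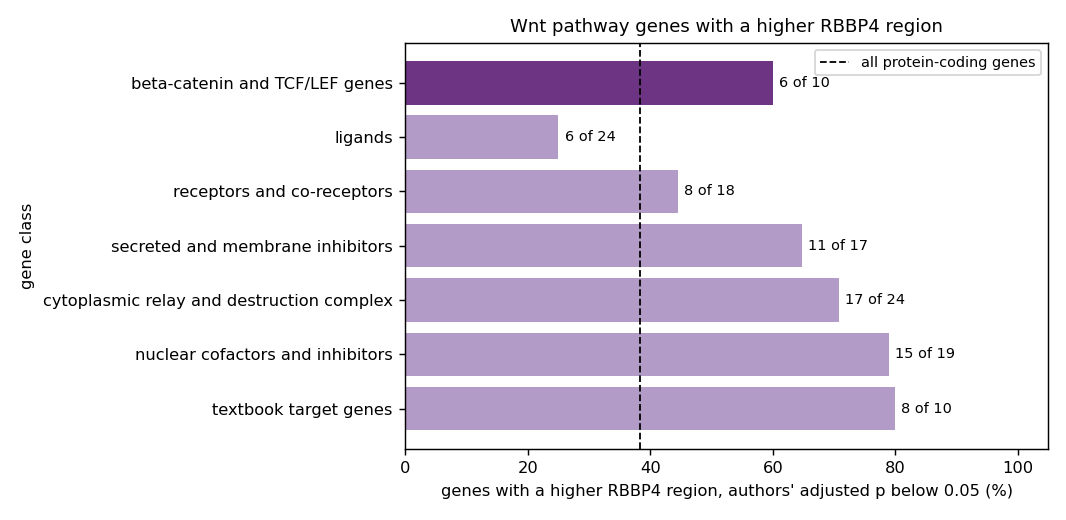
Share of genes (horizontal axis, percent) with at least 1 higher RBBP4 region of adjusted p-value under 0.05 in the authors' deposited table, for the 10 beta-catenin and TCF/LEF genes (dark bar) and 6 classes of other Wnt pathway genes (light bars), with counts beside the bars; the dashed line is the 38.3% of all protein-coding genes. Ligands, with 6 of 24, lie below the line and the other bars above it.

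Among these other genes the largest RBBP4 ratios at regions of at least 20 reads lay at PPP2CA, a catalytic subunit of protein phosphatase 2A, and at JUN. PPP2CA had 40 reads in the knockdown library and 0 in the control library in a region across its span end. That region was 9.20-fold higher against the floor of 3 reads, with an exact lower limit of 7.14. JUN, a component of the AP-1 transcription factor, had 92 reads against 4, 15.9-fold higher (5.99 to 59.5). CSNK1G1, a casein kinase 1 isoform, had 21 against 1 (14.5-fold, 2.33 to 599), besides 2 other higher regions and 1 lower. TLE3, a corepressor that binds TCF/LEF factors, had 39 against 2 (13.5-fold, 3.48 to 115), and ZNRF3, a ligase that removes frizzled receptors, had 19 against 1 (13.1-fold, 2.08 to 545). In the lower direction only 2 regions reached that depth, at BTRC and FBXW11, the related ubiquitin ligase subunits that recognise marked beta-catenin. Both genes also had higher regions that passed the adjusted p, 5 at BTRC and 1 at FBXW11. The lower region of BTRC had 5 reads against 17, 4.93-fold lower (1.75 to 17.1), and that of FBXW11 had 5 against 16, 4.64-fold lower (1.62 to 16.2). Neither lower region passed an adjusted p-value of 0.05 in the authors' deposited table, with 0.0890 and 0.112. No such lower region at or above 20 reads lay at the beta-catenin and TCF/LEF genes themselves.

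The kinase under study and the acetyltransferases were looked at in the same way. CSNK2A1, a catalytic subunit of casein kinase 2, had 1 listed RBBP4 region inside the gene, with 10 reads against 2 (3.45-fold higher, 0.735 to 32.4). CSNK2A2 and CSNK2B had none. EP300, which encodes P300, had 1 with 30 reads against 6, 3.45-fold higher (1.41 to 10.1), and an adjusted p-value of 0.00281 in the authors' deposited table. CREBBP had 3 higher regions and 1 lower, none with an adjusted p-value under 0.05 in the authors' deposited table.

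P300 regions lay at 26 of the 114 other Wnt genes, with a higher one at 14 (12.3%) and a lower one at 16 (14.0%), against 11.5% and 17.7% of all protein-coding genes. None passed an adjusted p-value of 0.05 in the authors' deposited table. WNT10A, a ligand, had 11 reads against 1 (12.7-fold higher, 1.85 to 547), and LGR5, an R-spondin receptor, and WIF1, a secreted Wnt inhibitor, each had 12 against 2 (6.93-fold, 1.54 to 63.7), and LGR5 had 1 lower P300 region as well. EPHB2, an ephrin receptor, had 11 against 2 (6.35-fold, 1.39 to 59.0). CSNK1G1 had a higher P300 region, with 14 against 2 (8.08-fold, 1.86 to 73.3), and a lower one, with 4 against 14 (3.03-fold lower, 0.952 to 12.6). Also lower were CDC73, a subunit of the PAF1 complex, with 4 against 16 (3.46-fold, 1.12 to 14.2), and KREMEN1 and CTBP2, each with 2 against 10 (4.33-fold, 0.923 to 40.6). ROR2, a Wnt co-receptor, had 3 lower and 2 higher P300 regions, and the lower one named by the rule had 5 against 15 (2.60-fold, 0.898 to 9.14).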

How the data were processed

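Chromatin of NCI-H69 cells was immunoprecipitated for RBBP4 or P300 and sequenced as paired 150 bp reads, per the labels' protocols. The submitters' processing notes name the build GRCh38 and, with no roles, DiffBind 3.4.11, MACS2 2.2.7.1, ChIPseeker 1.28.3, Bowtie2 2.4.5, FastQC and Trim Galore 0.6.7. The authors deposited 1 table per antibody with RPKM values of the knockdown and control libraries. The log2 fold change of each region and its p-value and adjusted value are the authors', per the file headers. Input libraries were not used here.

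Reads were recovered as RPKM times width, whole within 0.01 of a read for 98.3% of RBBP4 and 99.4% of P300 regions. For the other 596 and 131 regions the reads come from a solved width at which both densities are whole reads. Where several widths did so, the recomputed p, times a small whole number, picked the width closest to the deposited p. The deposited p was 2 times the recomputed one in 94.1% and 80.2% of them. Because the p guided the choice, that match is not a check. The total behind the RPKM was inferred from these steps and not checked. The number of tested regions followed from adjusted over unadjusted p as 95329 (RBBP4) and no fewer than 134011 (P300). Folds carry 95% Clopper-Pearson intervals, and 3 reads stand in for 0 in a library as the floor. The pseudocount was 1 RPKM. P-values were recomputed with beta-binomial tails at dispersions of 0.01, 0.04 and 0.16, over listed regions only, with the number tested as above.

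Gene spans, start sites and promoters came from RefSeq on GRCh38.p14, and all 10 genes and 114 other pathway genes matched by symbol. The genes and lists were chosen with earlier results of these data known. All regions of the 10 genes are given. Of the other genes, the 5 largest ratios per antibody and direction were named, at 20 reads or more for RBBP4 and 12 for P300, with CSNK2A1, CSNK2A2, CSNK2B, EP300 and CREBBP. Read recovery and intervals were tested on simulated Poisson reads at the deposited widths. That simulation held no solved widths, no listing by p and no spread beyond counting error, so it does not cover those. Python 3.11.15, numpy 2.4.6, pandas 2.3.3, scipy 1.17.1 and matplotlib 3.10.9 were used.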

Additional observations from a re-analysis of the deposited data

How the results depend on the processing

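No paired analysis was possible because each antibody and arm had 1 library, and for the same reason no library could be left out. With at least 20 reads over both libraries, 9 higher and 0 lower RBBP4 regions were left of 18 and 2, and no P300 region of the 5. At a 4-fold threshold 12 of the 18 higher and both lower RBBP4 regions were left, and 2 of the 4 lower P300 regions. Spans extended by 10000 bp gave 3 higher P300 regions instead of 1. With a dispersion of 0.16, 0 of the 10 genes kept an RBBP4 region of adjusted p below 0.05 instead of 6, and with the authors' unadjusted p, 5 genes instead of 0 had a P300 region. The median fold, knockdown over control, was 3.86 for RBBP4 and became 5.75 with the scaling of the authors' log2 fold change, inferred to be to whole libraries, and 5.17 with a floor of 1 read in place of 0. For P300 it was 0.308, and became 0.227 and 0.257, the 0.227 by a shift taken from only 8 regions. All 25 folds of single regions kept their direction under both settings and stayed within their own intervals. Neither setting could have turned a direction, so the kept directions add no support. The lower floor changes only folds with an empty library and moves them away from equal density, where their intervals have no bound. The other setting uses the same scaling on which higher and lower were defined. Among the other Wnt genes, 19 instead of 7 had a lower RBBP4 region when an absolute log2 ratio of at least 1, or of at least 2, replaced the adjusted p, and 8 instead of 16 had a P300 region that was lower by a log2 ratio of at least 2. Regions of 7 to 94 reads limit the precision of every fold.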
